A study of Mus musculus with 15 samples.

Results

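Matrix metalloproteinases (MMPs), their tissue inhibitors (TIMPs) and the cell surface protease Fap were followed in fibroblasts after a cytosolic and nuclear protein was made to unfold. The 10 genes were Mmp2, Mmp3, Mmp9, Mmp10, Mmp13, Mmp14, Timp1, Timp2, Timp3 and Fap, of 20207 genes in the deposited tables. They were picked by symbol, but selected on measured values in part, because a higher Mmp9 and a lower Fap at the latest time had been seen in the same libraries. All values at 405 min against control are therefore given as a description. Of the 10 genes, 7 had at least 1 count in every library and entered the test across genes, whereas Mmp3, Mmp10 and Mmp13 did not.

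MMPs are zinc-dependent enzymes that are made as inactive precursors and cleave collagens, proteoglycans and other proteins of the extracellular matrix. TIMPs bind the active site of these enzymes and block it, and TIMP2 also helps the membrane-anchored MMP14 to activate the MMP2 precursor at the cell surface. Fibroblasts are a main source of both in connective tissue. FAP is a membrane-bound serine protease of the prolyl oligopeptidase family, best known from activated fibroblasts in wounds and tumours, and it can cleave denatured collagen.

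The cells were NIH3T3, an established mouse embryonic fibroblast line, and every group carried the same stably introduced fusion, DD-sfGFP, a green fluorescent protein joined to a destabilizing domain (DD). According to the study's methods, cells with a high GFP signal had been sorted after stable transfection, and Shield-1 (S1), the small molecule that keeps the DD folded, was in the medium until it was withdrawn by adding purified FKBP protein to sequester it. The group called cont (5 samples) had no stress and kept S1, and the groups DD 45min (3 samples), DD 135min (3 samples) and DD 405min (4 samples) were harvested that many minutes after S1 withdrawal. The other stresses of the study were not analysed here. No source used here says that the replicates were separate cultures, so p-values measure the spread between these libraries. Because RNA was taken from whole cultures, fewer cells with a transcript and less of it per cell cannot be told apart.

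Library totals ranged from 6652539 counts (control replicate 3) to 30258404 (45 min, replicate 1). The libraries also fell into 2 sets by how strongly the level of a gene depended on the GC content of its exons. Set 2 held control replicate 2, the third 45-min library and replicates 1, 2 and 4 at 405 min, and set 1 the other 10, so that 3 of 4 libraries at 405 min but 1 of 5 controls were in set 2. All 3 libraries at 135 min were in set 1, so 405 against 135 min is also largely a comparison of set 2 with set 1. The split rests on a narrow margin, a widest gap in slope of 0.284 against the next of 0.28. Along the first principal component (56% of the variance) the sets did not overlap. Its widest gap, however, fell inside set 1 and not between the sets, so a cut there put just 6 of 15 libraries on the same side. The study's methods describe more than 1 way of making libraries but tie none to a sample, and the labels name a NuGEN kit for all 15. Between the sets 5146 of 10276 tested genes differed (edgeR's quasi-likelihood test, adjusted p under the 0.05 threshold). The sets had been cut from these same counts, so this number describes the split and is no test of it. Control replicate 3 was the shallowest library and stood apart for several of the genes below. Fibroblast markers were present throughout, with 10 of 10 over 1 CPM (counts scaled to library size, with TMM factors) in all 15 libraries. Their summed level was 12900 to 17900 CPM at 405 min and 16500 to 20000 in controls. At 405 min 4 of the 10 lay below all controls, as did 661 of 10276 tested genes. Among the 4 were Vim (3310 to 4190 CPM, controls 4910 to 6390), Pdgfra (175 to 239, controls 275 to 334) and Pdgfrb (56.1 to 89.9, controls 102 to 151). The other markers overlapped the controls, for instance S100a4 (1120 to 1310 CPM, controls 1010 to 1440) and Thy1 (87 to 213, controls 108 to 247).

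Per length of transcript, the 3 inhibitors, Mmp2 and Mmp14 were abundant and the other 5 genes rare. On the deposited RPKM scale (reads scaled to transcript length and library size) the control means were 91.8 ± 25 for Timp1, 66.8 ± 42.2 for Timp2, 46 ± 13.5 for Timp3, 40.6 ± 21.8 for Mmp2 and 16.2 ± 10.1 for Mmp14 (SD, n = 5). The remaining RPKM means were 0.186 ± 0.0726 for Fap, 0.107 ± 0.0776 for Mmp9, 0.0529 ± 0.0886 for Mmp3, 0.041 ± 0.0422 for Mmp10 and 0.0189 ± 0.0423 for Mmp13 (SD, n = 5). The ranges of mean ± SD overlapped between neighbours in this order, apart from the step between Mmp14 and Fap. The deposited RPKM did not sum to the same total in each library, so levels on this scale differ between libraries for that reason too. The sum was 1.598e+05 in control replicate 3, 2.617e+05 to 3.017e+05 in the other controls and 2.06e+05 to 2.728e+05 at 405 min. Mmp2 and Mmp14 together made up at least 97.3% of the RPKM of the 6 Mmp genes in every library. At 405 min the order of the abundant genes was Timp2 (76.2 ± 11.1), Timp1 (63.8 ± 11), Mmp2 (52 ± 13.5), Mmp14 (23 ± 4.28) and Timp3 (22.7 ± 4.55, SD, n = 4), where mean ± SD overlapped between neighbours apart from Mmp2 and Mmp14.

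**Figure D1:**
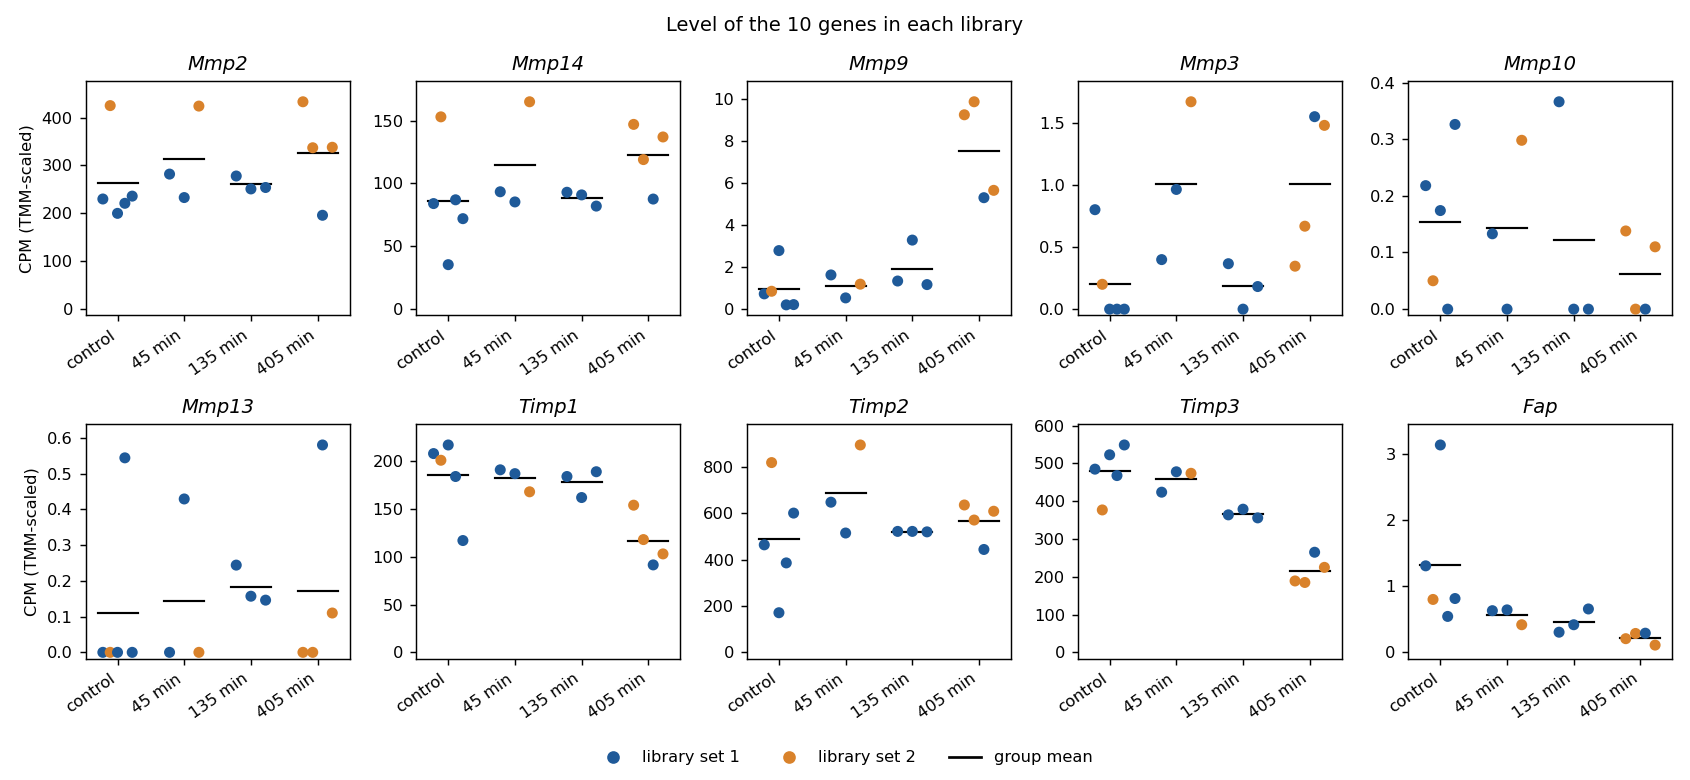
TMM-scaled CPM (vertical axis, linear, a separate range for each gene) of the 10 genes in the 15 libraries, by group, with points coloured by library set and bars at the group means. The 4 libraries at 405 min lie above all controls for Mmp9 (5.31 to 9.88 CPM) and below all controls for Timp3 (185 to 265 CPM) and Fap (0.11 to 0.29 CPM). Of all tested genes, 13.2% did not overlap between these 2 groups.

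Mmp3, Mmp10 and Mmp13 lie within 1 cluster on chromosome 9 (mm9, 7272545 to 7510240), and their proximal promoters are shown because the abundant members with a promoter sequence lack the letters that these share. Promoter sequences were found for 7 of the 10 genes in RefSeq (GRCm38.p6), and those of Mmp2, Mmp9 and Fap were not. The first 3 lines give the 100 bases before the annotated start of the cluster genes and the next 2 those of Timp1 and Timp3, 5′ to 3′ on the coding strand. Capitals mark the AP-1 motif TGANTCA and the TATA box TATAAA.
Mmp3, chr9:7445722-7445821, + strand: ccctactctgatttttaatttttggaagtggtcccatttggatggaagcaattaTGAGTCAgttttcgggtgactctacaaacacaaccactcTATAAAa
Mmp10, chr9:7502242-7502341, + strand: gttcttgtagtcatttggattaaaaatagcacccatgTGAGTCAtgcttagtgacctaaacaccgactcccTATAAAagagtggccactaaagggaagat
Mmp13, chr9:7272414-7272513, + strand: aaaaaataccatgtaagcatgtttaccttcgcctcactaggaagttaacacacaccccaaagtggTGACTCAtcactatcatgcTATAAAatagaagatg
Timp1, chrX:20870066-20870165, + strand: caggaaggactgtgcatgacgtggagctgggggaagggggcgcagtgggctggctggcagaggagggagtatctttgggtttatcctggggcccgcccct
Timp3, chr10:86300312-86300411, + strand: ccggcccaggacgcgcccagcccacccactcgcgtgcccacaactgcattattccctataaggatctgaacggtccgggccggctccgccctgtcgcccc

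AP-1 is the Fos-Jun dimer, known from classical work as an inducer of stromelysin and collagenase genes. TGANTCA, searched on both strands over 250 bases before the start, was found once in each of Mmp3, Mmp10 and Mmp13, at 46, 63 and 35 bases before the start, and in 6.73% of 32536 promoters. TATAAA was found at 7, 29 and 16 bases before the start of the same 3 genes, and in 12.3% of promoters. Neither motif was in the window of Mmp14, Timp1, Timp2 or Timp3. AGGAAG, the letters bound by the ETS factor PEA3, were found in Mmp3 (1), Mmp13 (2), Mmp14 (1), Timp1 (2) and Timp3 (1) against 29.6% of promoters. A loose NF-kB motif was found in Timp1 (4) and Timp3 (2) against 46.0%. The Timp1 matches at 13, 12 and 11 bases before the start overlap one another, so they are not separate stretches. The GC content of these 250 bases was 37.6% for Mmp3, 37.2% for Mmp10 and 40.4% for Mmp13, and 54.4% for Timp1, 55.2% for Mmp14, 65.6% for Timp3 and 68% for Timp2. A match is a run of letters and not a bound site.

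The next comparisons asked whether the 10 transcripts differ from control at each time after S1 withdrawal. At 45 min none of the 7 genes in the fit passed the threshold, where 0% of all tested genes did. Over all genes edgeR called 0, with 365 at an unadjusted p under 0.05, and DESeq2 called 2 higher and 4 lower. At 135 min 0 of 7 passed, beside 1.46% of all tested genes. At 405 min 4 of 7 passed, Mmp9 on the higher side, where 9.99% of tested genes were called, and Timp1, Timp3 and Fap on the lower side, where 13.4% were. In either direction the background was 23.4%, and nothing is read from the count of members, since this contrast had chosen them. The median log2 fold change of the 7 genes was 0.26, -0.01 and 0.21 at 45, 135 and 405 min, beside 0.02, -0.06 and 0 over all tested genes.

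**Figure D2:**
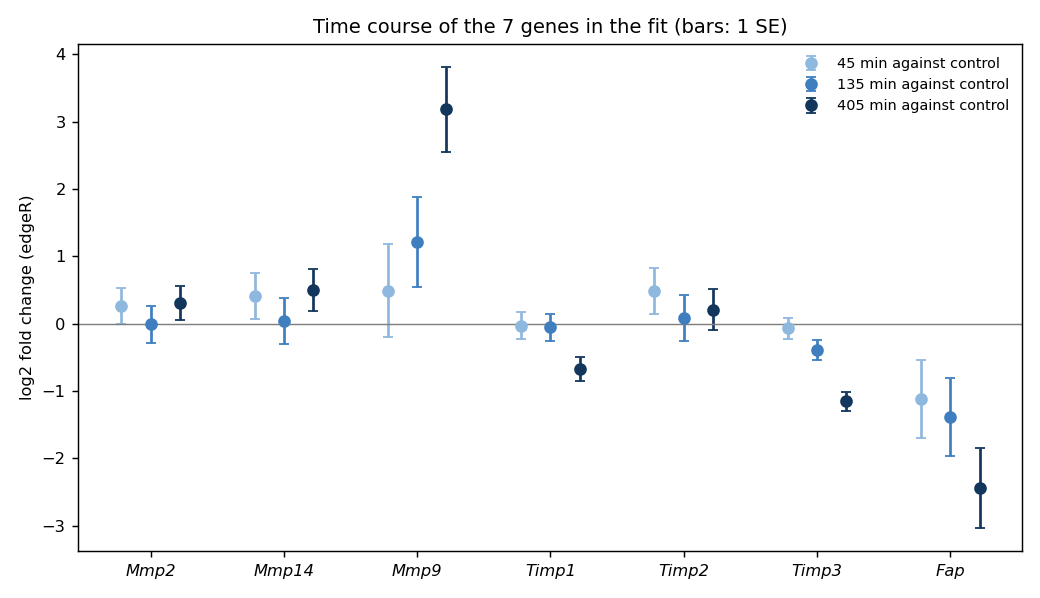
Log2 fold change against control (vertical axis, edgeR) of the 7 genes in the fit at 45, 135 and 405 min, with bars of 1 SE. Mmp9 lies at 0.49, 1.21 and 3.18, Timp3 at -0.07, -0.39 and -1.15, and Fap at -1.12, -1.38 and -2.44, while Mmp2, Mmp14 and Timp2 stay between -0.01 and 0.50.

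Mmp9 is a gelatinase that cleaves denatured and basement membrane collagen. The gene lies on chromosome 2 (mm9, 164773751 to 164781346), with exons of 55.1% GC. Its level was 0.728, 0.852, 2.79, 0.204 and 0.217 CPM in control replicates 1 to 5, from 3 to 17 counts a library. It was 1.63, 0.536 and 1.19 CPM at 45 min, and 1.34, 3.29 and 1.17 CPM at 135 min. Both early groups overlapped the controls, whose highest value was that of the shallow replicate 3.

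At 405 min the Mmp9 level was 9.26, 9.88, 5.31 and 5.66 CPM, from 55 to 207 counts. All 4 libraries lay above all controls and above all 135-min libraries. Of all tested genes, 13.2% did not overlap between 405 min and control, and 36.8% between 405 and 135 min. Mean CPM ± SD was 0.958 ± 1.06 in the 5 controls, 1.12 ± 0.55 in the 3 libraries at 45 min, 1.93 ± 1.18 in the 3 at 135 min and 7.53 ± 2.37 in the 4 at 405 min. The fitted fold at 405 min was 9.04, a log2 fold change of 3.18 (SE 0.63), and against 135 min the log2 difference was 1.96 (SE 0.69). With the library set in the model the latter was 1.73 (SE 0.78). Even so, Mmp9 made up only 1.08% to 1.97% of the RPKM of the 6 Mmp genes at 405 min, beside 0.0607% to 1.1% in controls.

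Earlier Mmp9 differences did not pass the test and moved with single libraries. The log2 fold change was 0.49 (SE 0.69, adjusted p = 0.755, edgeR) at 45 min and 1.21 (SE 0.67, adjusted p = 0.505, edgeR) at 135 min. Without control replicate 3 these values were 1.21 and 1.92, the first was 0.10 without replicate 1 of the 45-min group, and the second was 0.58 without replicate 2 of the 135-min group. With control replicate 3 left out and the library set in the model, a setting chosen after seeing the data, the value at 135 min was 2.13 (SE 0.53), past the threshold. That setting drops the highest Mmp9 control, so its outcome is a description and not a test. At 405 min set 1 alone gave 2.65 (SE 1.1) and set 2 alone gave 3.28 (SE 0.50), with 1 library in one of the groups each time. Mmp9 had been chosen on the 405-min contrast, so these 2 values are a description and not a test.

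Leukocytes are rich in Mmp9, so their markers were read in the same libraries. Of 8 macrophage and leukocyte genes in the tables, 1 was over 1 CPM in all libraries, and their summed level was 4.59 to 8.02 CPM in controls, 5.55 to 8.57 at 45 min, 5.43 to 9.21 at 135 min and 12.2 to 14.7 at 405 min. The sum was thus higher in all 405-min libraries, carried by Cd14 (4.35 to 8.02 CPM, controls 2.11 to 4.89), Cd68 (3.04 to 3.63 CPM, controls 0 to 1.8) and Csf1r (2.32 to 4.15 CPM, controls 0 to 1.15). Ptprc, the pan-leukocyte marker CD45, was between 0 and 0.191 CPM at 405 min, and Emr1, Lyz2 and Cd52 were each at 0 in 3 of the 4 libraries at that time. Itgam was 0.29 to 0.907 CPM at 405 min and 0.651 to 4.01 in controls. The part of other cells in the Mmp9 level was not tested. Neutrophil genes summed to 1 to 2.32 CPM at 405 min and 0.706 to 5.06 in controls, so those ranges overlapped.

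Mmp2, the constitutive gelatinase, and Mmp14, the membrane-anchored enzyme that activates it, showed no difference that passed the test. Mmp2 (chromosome 8, mm9, 95351227 to 95377319) was at 230, 425, 200, 221 and 236 CPM in controls, 282, 233 and 424 at 45 min, 278, 251 and 254 at 135 min and 433, 337, 196 and 338 at 405 min. Mmp14 (chromosome 14, mm9, 55050441 to 55060095) was at 84, 153, 35.4, 87 and 72 CPM in controls, 93.4, 85.3 and 165 at 45 min, 93, 90.9 and 82 at 135 min and 147, 119, 87.6 and 137 at 405 min. In both genes the high values are those of set 2 in every group that holds such libraries, and the groups overlapped throughout.

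The log2 fold change of Mmp2 was 0.26 (SE 0.27, adjusted p = 0.709, edgeR) at 45 min, -0.01 (SE 0.28, adjusted p = 0.995) at 135 min and 0.31 (SE 0.25) at 405 min. For Mmp14 it was 0.41 (SE 0.34, adjusted p = 0.698, edgeR), 0.04 (SE 0.34, adjusted p = 0.984) and 0.50 (SE 0.31). At 405 min the Mmp2 value turned to -0.18 within set 1 and -0.19 within set 2, and the Mmp14 value was 0.31 within set 1 and -0.17 within set 2. Without control replicate 2, the only control of set 2, the values at 405 min were 0.56 for Mmp2 and 0.81 for Mmp14, both then past the threshold.

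Timp2, which inhibits MMPs and forms the complex through which MMP14 activates MMP2, had the widest range of the inhibitors. It lies on chromosome 11 (mm9, 118162375 to 118216725). The controls were at 464, 819, 171, 386 and 601 CPM, the 45-min libraries at 648, 515 and 895, the 135-min libraries at 522, 522 and 520, and the 405-min libraries at 636, 571, 444 and 609. The 171 CPM of control replicate 3 was the lowest Timp2 value and the 35.4 CPM of the same library the lowest for Mmp14, while all later groups lay inside the control range or, at 45 min, reached above it. The log2 fold change was 0.49 (SE 0.34, adjusted p = 0.698, edgeR) at 45 min, 0.09 (SE 0.34, adjusted p = 0.95) at 135 min and 0.21 (SE 0.31) at 405 min, the last turning to -0.42 within set 2.

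Mmp2, Mmp14 and Timp2 were past the threshold between the library sets, as were 5146 of 10276 tested genes, so nothing is read from that number of members. The sets had been cut by the GC dependence of these same counts, so the adjusted p-values between them are a description and not a test. Set 2 was above set 1 on the log2 scale by 0.86 for Mmp2 (adjusted p = 2.24e-05), 0.88 for Mmp14 (adjusted p = 0.0011) and 0.71 for Timp2 (adjusted p = 0.0171, edgeR with group and set in the model). The differences of Mmp9 (0.30, adjusted p = 0.704), Timp1 (0.15, adjusted p = 0.486), Timp3 (-0.27, adjusted p = 0.0516) and Fap (-0.64, adjusted p = 0.371, edgeR) did not pass. The exonic GC content was 55.2% for Mmp2, 55.4% for Mmp14, 54.2% for Timp2 and 55.1% for Mmp9, against 52.9% for Timp1, 45.6% for Timp3 and 39.8% for Fap. Over the 15 libraries the log2 CPM of the activation trio moved together, with Pearson r of 0.85 for Mmp2 and Mmp14, 0.73 for Mmp2 and Timp2 and 0.89 for Mmp14 and Timp2. After each library set was centred on its own mean the values were 0.56, 0.66 and 0.88. These are descriptions over libraries that share groups and sets.

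**Figure D3:**
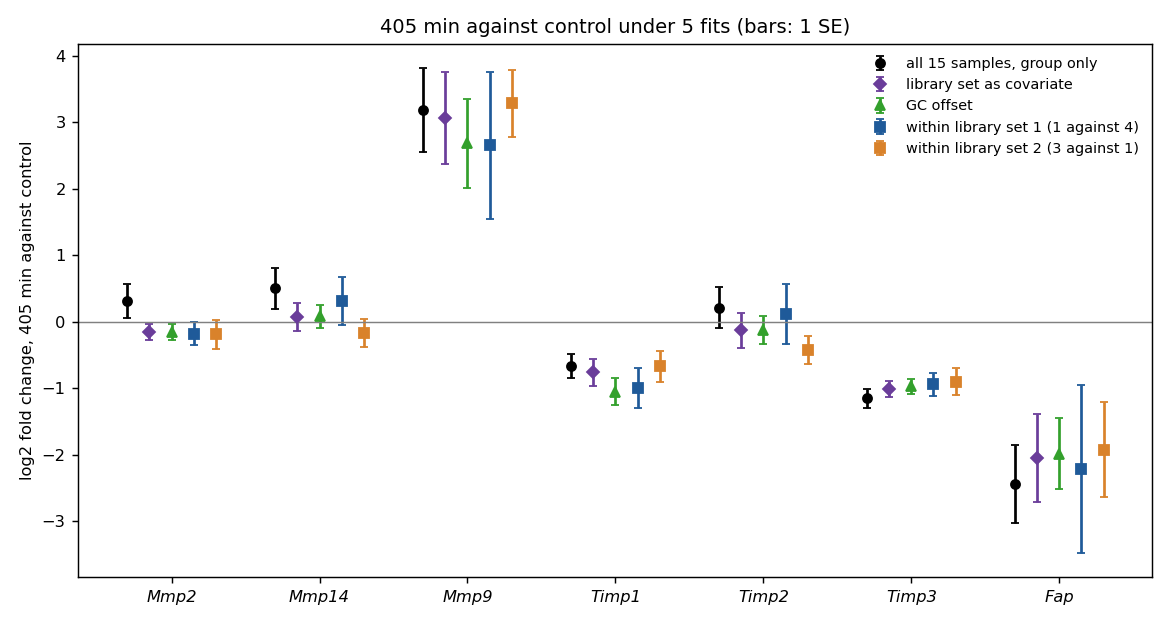
Log2 fold change at 405 min against control (vertical axis) of the 7 genes under 5 fits, with bars of 1 SE. Mmp9 stays between 2.65 and 3.28 and Timp3 between -1.15 and -0.90, whereas Mmp2 moves from 0.31 to below 0 in the 4 fits that account for library set or GC content.

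Timp3 is the inhibitor that binds to the matrix itself and also blocks several ADAM and ADAMTS proteases. The gene lies on chromosome 10 (mm9, 85763157 to 85812250) and is nested in the neuronal gene Syn3 on the opposite strand, which had at most 29 counts in any library against at least 2739 for Timp3. Whether strand was used in counting is not given in the sources used here. The level was 485, 377, 523, 468 and 549 CPM in controls and 424, 478 and 474 at 45 min. It was 364, 379 and 356 CPM at 135 min, where 2 of 3 libraries lay below the lowest control. At 405 min it was 189, 185, 265 and 225 CPM, below every library of the other groups. Of all tested genes, 13.2% did not overlap between 405 min and control, and 36.8% between 405 and 135 min. The fibroblast markers Vim, Pdgfra and Pdgfrb also lay below the controls at 405 min, whereas S100a4 and Thy1 overlapped them. The part of these markers in the Timp3 level was not tested.

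Timp3 was the steadiest of the 7 genes among controls, with an SD of 0.21 on the log2 CPM scale beside a median of 0.49 over all tested genes. By group, mean CPM ± SD was 480 ± 65.9 (5 controls), 458 ± 30.1 (3 libraries, 45 min), 366 ± 11.9 (3 libraries, 135 min) and 216 ± 37.4 (4 libraries, 405 min). The fitted level at 405 min was 0.45 times that of controls, a log2 fold change of -1.15 (SE 0.14), with -0.94 (SE 0.17) among libraries of set 1 and -0.90 (SE 0.20) among those of set 2. At 135 min the log2 fold change was -0.39 (SE 0.15, adjusted p = 0.3, edgeR), not past the threshold. With the library set in the model it was -0.44 (SE 0.12, adjusted p = 0.039, edgeR), and among the set 1 libraries alone -0.46 (SE 0.11, adjusted p = 0.0351, edgeR), both past it. At 45 min it was -0.07 (SE 0.15, adjusted p = 0.84, edgeR). From 135 to 405 min the log2 difference was -0.76 (SE 0.16), and Timp3 was the 1 member of 7 called between these groups, beside 5.06% of all tested genes, a comparison that shares the 405-min libraries. With the library set in the model that difference was -0.57 (SE 0.15).

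Timp1 is a secreted inhibitor that growth factors and cytokines induce in many cells. It lies on the X chromosome (mm9, 20447292 to 20451863) inside Syn1, which is on the opposite strand and had at most 226 counts where Timp1 had at least 947. Controls were at 208, 201, 217, 184 and 117 CPM, the 45-min libraries at 191, 187 and 168, and the 135-min libraries at 184, 162 and 189. At 405 min the values were 154, 118, 91.5 and 103 CPM, and 2 of these 4 lay below the lowest control, replicate 5. That replicate was well below the other controls, which were at least 184 CPM.

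The log2 fold change of Timp1 was -0.03 (SE 0.20, adjusted p = 0.951, edgeR) at 45 min and -0.05 (SE 0.20, adjusted p = 0.95) at 135 min. At 405 min it was -0.67 (SE 0.18), 0.629 times the control level, from mean CPM ± SD of 185 ± 40 over 5 controls and 117 ± 27.1 over 4 libraries. Taken by library set, it was -1.0 (SE 0.30) in set 1 and -0.67 (SE 0.23) in set 2, neither past the threshold. The call was also lost without control replicate 1 (-0.62), without replicate 2 (-0.68) or 4 (-0.61) of the 405-min group, and when the fit held these groups alone (-0.67).

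The make-up of the inhibitor transcripts followed from these values. Timp3 accounted for 23.5% ± 5.3 of the summed RPKM of the 3 Timp genes in controls, 20% ± 2.14 at 45 min, 18.5% ± 1.2 at 135 min and 14.2% ± 4.25 at 405 min (mean ± SD over 5, 3, 3 and 4 libraries). The share ranged from 15.1% to 28.2% in controls and from 10.4% to 20.1% at 405 min, so the groups overlapped. Timp2 made up 29.5% ± 12.3 in controls and 46.7% ± 3.14 at 405 min, and Timp1 47% ± 10.7 and 39.1% ± 4.3. The lowest Timp3 share among controls was in set 2, as were the 3 lowest at 405 min.

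**Figure D4:**
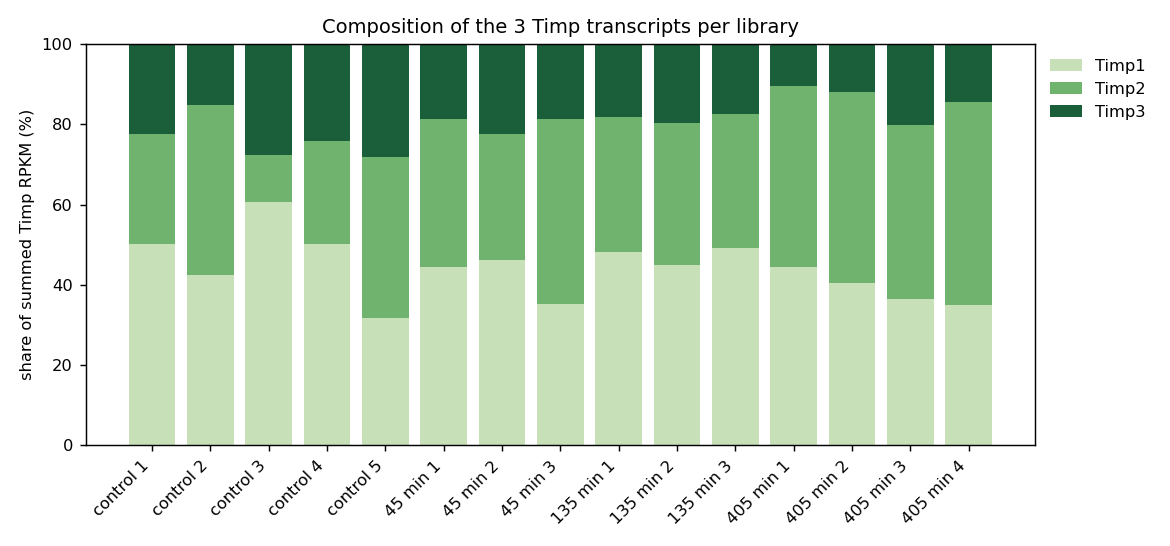
Share of the summed deposited RPKM of Timp1, Timp2 and Timp3 (vertical axis, percent) in each of the 15 libraries, stacked to 100. The Timp3 segment is 15.1% to 28.2% in controls and 10.4% to 20.1% at 405 min.

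Fap was expressed at a low level, so each value rests on few reads. The gene lies on chromosome 2 (mm9, 62339002 to 62412078), with exons of 39.8% GC. Its level was 1.31, 0.801, 3.14, 0.544 and 0.815 CPM in controls (8 to 18 counts), 0.631, 0.643 and 0.418 at 45 min and 0.305, 0.418 and 0.657 at 135 min. At 405 min it was 0.207, 0.286, 0.29 and 0.11 CPM (3, 6, 3 and 2 counts), below every library of the other groups. Of all tested genes, 13.2% did not overlap between 405 min and control, and 36.8% between 405 and 135 min. The fibroblast markers Vim, Pdgfra and Pdgfrb were lower in the 405-min libraries, whereas S100a4 and Thy1 overlapped the controls. The part of these markers in the Fap level was not tested. A count of 3, the upper limit that a count of 0 allows, equals 0.143 to 0.29 CPM in the 405-min libraries, so 3 of those 4 values lie at or under that limit, which covers counting error only.

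Mean Fap CPM ± SD was 1.32 ± 1.05 over the 5 controls, 0.564 ± 0.127 over 3 libraries at 45 min, 0.46 ± 0.179 over 3 at 135 min and 0.223 ± 0.0846 over 4 at 405 min. The log2 fold change was -1.12 (SE 0.58, adjusted p = 0.698, edgeR) at 45 min and -1.38 (SE 0.58, adjusted p = 0.348) at 135 min. Neither early difference passed the test, and without control replicate 3 they were -0.61 and -0.87. At 405 min the value was -2.44 (SE 0.59), a fitted level of 0.184 times the controls, and -1.07 (SE 0.65) against 135 min. The latter was -0.58 (SE 0.78) with the library set in the model. With the library set in the model the value at 405 min was -2.05 (SE 0.66), no longer past the threshold, and without control replicate 3, whose 3.14 CPM was the highest Fap value, it was -1.94 and still past it. Fap had been chosen on this contrast, so neither outcome is a test.

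Mmp3 and Mmp10, the stromelysins, and Mmp13, a collagenase, had at least 1 library without a count and were outside the fit across genes. Mmp3 (chromosome 9, mm9, 7445822 to 7455974) had 11, 4, 0, 0 and 0 counts in controls, 12, 9 and 28 at 45 min, 6, 0 and 5 at 135 min and 5, 14, 16 and 27 at 405 min. In CPM this was 0 to 0.801 in controls, 0.399 to 1.67 at 45 min, 0 to 0.366 at 135 min and 0.346 to 1.55 at 405 min. Mmp3 was thus detected in all libraries at 45 and 405 min and in 2 of 5 controls, and the groups overlapped.

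An exact two-sided permutation test on the mean log2 CPM gave a Mmp3 difference of 2.21 at 45 min (p = 0.0536, adjusted over 6 tests 0.322, smallest p possible 0.0179) and 0.25 at 135 min (p = 0.821). With each library left out in turn the exact permutation p of the first ranged from 0.0286 (without control replicate 1) to 0.238 (without replicate 3 of the 45-min group). Mmp10 (chromosome 9, mm9, 7502360 to 7510240) had at most 6 counts in any library, and its difference of -0.08 at 45 min had an exact permutation p of 0.893 and that of -0.37 at 135 min one of 0.661. Mmp13 (chromosome 9, mm9, 7272545 to 7283331) had 8 counts in control replicate 4 and 0 in the other controls, and 4, 3 and 4 counts at 135 min. The exact permutation p was 1 for its 45-min difference of 0.24 and 0.214 for its 135-min difference of 0.84, the latter between 0.0286 (without control replicate 4) and 0.619 with 1 library left out. A single difference at the smallest possible p would not pass after adjustment over the 6 tests.

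Related genes were read from 8 lists of 104 genes, of which 103 were in the tables and 65 in the fit. The lists were chosen with earlier results of these data known, so the p-values of their genes are not an independent test. The lists covered other MMPs, ADAM and ADAMTS proteases, the plasminogen activators, relatives of Fap, MMP activators and partners, matrix substrates, collagens and promoter-binding factors. At 45 min 0 of 65 passed, at 135 min 2 were lower (background 1.46%), and at 405 min 6 were higher and 12 lower (background 23.4%). The median log2 fold change of the 65 genes was -0.02 at both later times. The count at 405 min was 33 without control replicate 2, 3 within set 1 and 7 within set 2. The related genes named below for 405 min against control kept their sign under 27 alternative settings, leaving aside Nid1, for which these were not read.

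ADAMTS proteases, the secreted relatives of MMPs that Timp3 also inhibits, held the related genes that passed the test at 135 min. Adamts1, which cleaves versican and aggrecan, fell by 1.44 on the log2 scale at 135 min (SE 0.28, adjusted p = 0.0175, edgeR), with a value of -1.45 at 405 min (SE 0.25, adjusted p = 0.00163). Adamts5, the main aggrecanase in mice, fell by 0.86 at 135 min (SE 0.15, adjusted p = 0.00731, edgeR) and was at -1.66 at 405 min (SE 0.14, adjusted p = 7.09e-06). Its mean CPM ± SD was 166 ± 27.8 in the 5 controls and 52.7 ± 1.96 in the 4 libraries at 405 min. Without replicate 1 or replicate 3 of the 135-min group none of the 65 genes passed at 135 min. Adamts7 rose at 405 min, from 4.05 ± 1.63 to 13.3 ± 5.96 CPM (log2 fold change 1.70, SE 0.38, adjusted p = 0.00827, edgeR), although its groups overlapped. With the library set in the model its value was 1.04, and the call was lost within set 1 (0.98), within set 2 (1.19) and with the replicate block (1.58). The Adamts1 call was lost within set 1 (-1.34) and within set 2 (-0.72). Of 13 ADAM and ADAMTS genes in the fit 1 rose and 2 fell at 405 min, where 9.99% of all tested genes were higher and 13.4% lower, a background that applies to each list below.

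The plasminogen system yields plasmin, which can activate MMP precursors. Of 5 such genes in the fit, Plau (urokinase) fell at 405 min from 29.4 ± 10.9 to 12.9 ± 1.94 CPM (mean ± SD of 5 and 4 libraries), or -1.19 in log2 (SE 0.26, adjusted p = 0.00749, edgeR). Plaur, the urokinase receptor, passed on the higher side (0.93, SE 0.31, adjusted p = 0.0455, edgeR), but with the library set in the model it was 0.43 (adjusted p = 0.229, edgeR).

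Among 5 relatives of Fap in the fit 1 passed at 405 min, and in the direction opposite to that of the Fap values. Prepl, a cytosolic prolyl endopeptidase-like enzyme, rose from 17.7 ± 2.57 CPM in the 5 controls to 83.1 ± 7.5 CPM in the 4 later libraries (± SD), or 2.23 in log2 (SE 0.16, adjusted p = 6.04e-06, edgeR). All 4 libraries lay above all controls, in a comparison where 13.2% of tested genes did not overlap. The Prepl value was 2.35 within set 1 and 2.24 within set 2. Of 18 other MMPs and Timp4, only Mmp11 and Mmp19 were in the fit and neither passed against control at any time, while Mmp11 was higher at 405 than at 135 min (log2 difference 1.65, SE 0.41, adjusted p = 0.0346, edgeR). All 135-min libraries were in set 1 and most 405-min libraries in set 2, so time and library set are largely confounded there.

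Of 9 MMP activators, partners and other inhibitors in the fit 0 rose and 3 fell at 405 min (background 9.99% and 13.4%), with a median log2 fold change of -0.14. Thbs1 and Thbs2 encode thrombospondins, matricellular proteins that bind MMP2 and MMP9. Thbs1 fell from 633 ± 211 to 206 ± 45.1 CPM (log2 fold change -1.62, SE 0.22, adjusted p = 0.000336, edgeR) and Thbs2 from 773 ± 108 to 505 ± 25.3 CPM (-0.61, SE 0.12, adjusted p = 0.00432). Itgav, the integrin subunit that docks MMP2, passed (-0.84, SE 0.24, adjusted p = 0.0245, edgeR) but not with the library set in the model (-0.44, adjusted p = 0.11).

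Of 13 matrix substrates in the fit 3 fell at 405 min and 1 rose, the basement membrane gene Nid1 (0.93, SE 0.21, adjusted p = 0.00861, edgeR), with a median log2 fold change of -0.17 over the list (background 9.99% higher and 13.4% lower). Postn (periostin) was at 548 ± 286 CPM in controls and 199 ± 57 at 405 min (log2 fold change -1.46, SE 0.39, adjusted p = 0.0193, edgeR), Dcn (decorin) at 123 ± 53.1 and 49.1 ± 16.8 (-1.32, SE 0.31, adjusted p = 0.00963) and Vcan (versican) at 1120 ± 305 and 525 ± 104 (-1.1, SE 0.20, adjusted p = 0.00249). With the library set in the model Postn did not pass (-0.86, adjusted p = 0.146, edgeR) and Dcn was at -0.85, and within set 2 alone Dcn was at -0.36 and Vcan at -0.63, neither past the threshold. Of the 5 collagen genes 2 fell (background 13.4% lower), Col3a1 (-0.87, SE 0.18, adjusted p = 0.00503, edgeR) and Col1a2 (-0.39, SE 0.13, adjusted p = 0.0452), and the Col1a2 value was -0.15 with GC content in the model (adjusted p = 0.543). Both are fibrillar collagens that collagenases cleave. The Col3a1 value was -0.66 with the replicate block and GC content in the model, not past the threshold (adjusted p = 0.0826, edgeR).

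Among 13 promoter-binding factors in the fit 2 passed at 405 min and both were higher (background 9.99%), the NF-kB subunit genes Nfkb2 (1.57, SE 0.52, adjusted p = 0.0418, edgeR) and Rela (0.95, SE 0.32, adjusted p = 0.0452). Their groups overlapped, and with the library set in the model neither passed, at 0.74 for Nfkb2 (adjusted p = 0.0787, edgeR) and 0.40 for Rela (adjusted p = 0.145). No AP-1 or ETS gene passed against control at any time. Fosl2, an AP-1 subunit gene, was higher at 405 than at 135 min (log2 difference 0.98, SE 0.25, adjusted p = 0.0399, edgeR). In that comparison time and library set are largely confounded.

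**Figure D5:**
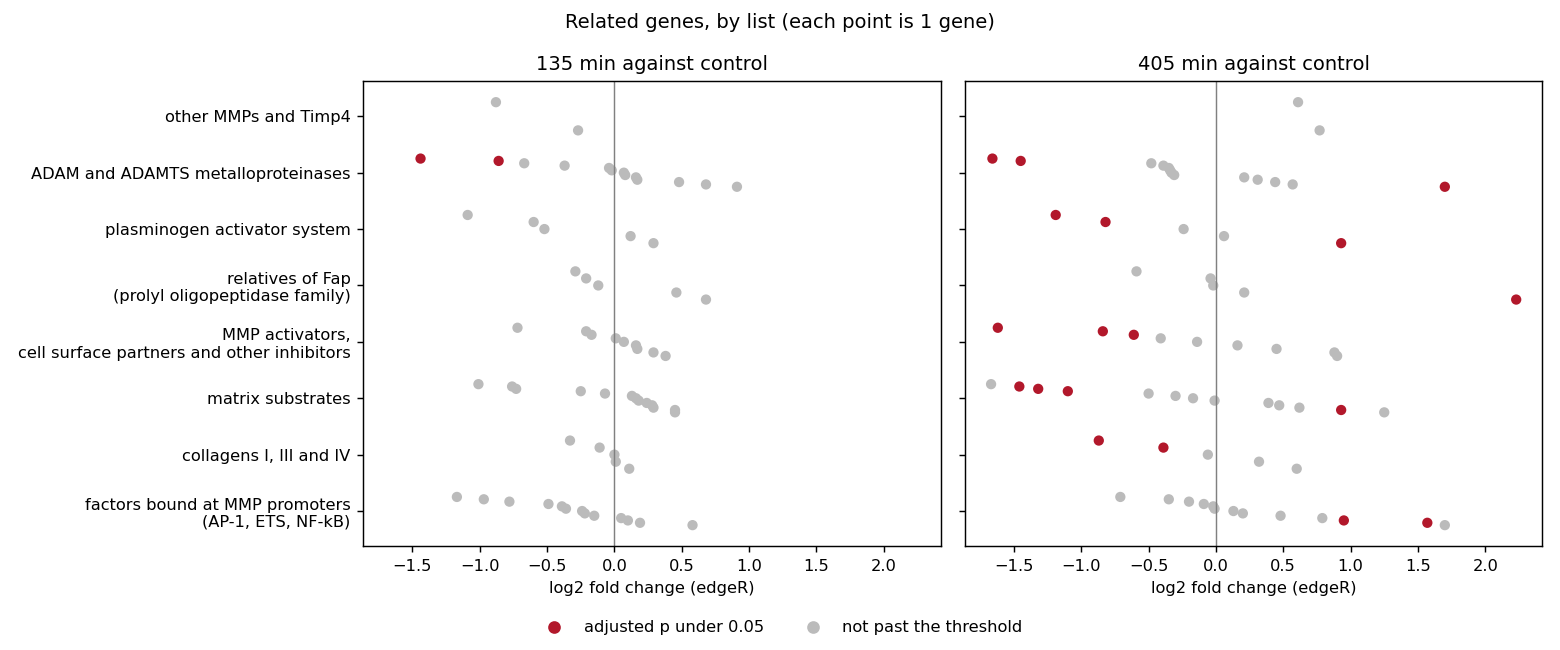
Log2 fold change (horizontal axis) of the 65 related genes in the fit, 1 point a gene, by list, at 135 and at 405 min against control, with points past an adjusted p of 0.05 in red. At 135 min 2 points are past it, and at 405 min 6 on the higher and 12 on the lower side.

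The tested genes most like Mmp9 over the 15 libraries, by Pearson r of log2 CPM, were Prr13, Ephx1 and Mad2l1bp (0.91 each), Sec24d and 9530068E07Rik (0.90 each). Ephx1 encodes a microsomal epoxide hydrolase and Sec24d a coat protein of vesicles that leave the endoplasmic reticulum. Those most like Fap were Plscr2, Polr3d and Ccrn4l (0.93 each), Cnih4 and Tmco1 (0.92 each). All of these r values describe libraries that share groups and library sets, and they carry no test.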

How the data were processed

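RNA of NIH3T3 cells was extracted with a QIAGEN kit. The labels name a NuGEN library kit for all 15 samples, whereas the study's methods describe poly(A) selection with a modified Illumina protocol and, in addition, a NuGEN kit, without saying which libraries each made. The authors aligned reads to mm9 and quantified RefSeq genes on the DNAnexus platform, with the aligner not given in the sources used here. What the authors deposited as read counts were expected counts (estimated rather than whole reads per gene), since 8.71% to 15.64% of the genes of a library held a fraction. The authors also deposited an RPKM per gene, a Z score per gene, and a ratio, the RPKM over the root mean square RPKM of that library. The last 2 columns were not used. Whole counts had been assumed in the design, so the expected counts were rounded and the same test kept.

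Genes with at least 1 count in every library (10276 of 20207) were tested with edgeR 4.0.16 in R 4.3.3 (TMM, quasi-likelihood, all 15 libraries, 1 term for group, Benjamini-Hochberg over all tested genes, threshold 0.05). TMM-scaled CPM and log2 CPM (prior count 2) were computed from the counts. The members and lists were chosen with earlier results of these data known. All 10 members were named, at most 3 genes a list at 405 min (the largest changes past the threshold, then at 135 min), and the 5 genes most like Mmp9 and Fap. Mmp11, Nid1 and Fosl2 fall outside that rule and were named after their values were seen. Members outside the fit were compared by an exact two-sided permutation test on mean log2 CPM. The script was tested on simulated data. Alternatives were DESeq2 (1.42.0), its size factors, other filters, only the compared groups, a replicate block, a GC offset from mm9 exons (95.9% of genes covered), the library set as covariate or taken singly, and each library left out. The 22 replicate pairs differed by more than sampling noise (chi-square over degrees of freedom 12 to 274.4). Protein sequences were not used here. A single item of the lists is not reported here.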

Additional observations from a re-analysis of the deposited data

Results flagged for a closer look

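Among the 20 groups of 4 or 5 libraries examined (10 genes in 2 groups), 3 held a value far from the rest of its group. No chance rate is set beside that number, because some groups hold values tied at 0 counts or libraries of both sets. Mmp2 in control replicate 2 was at 8.73 log2 CPM, with the next control at 7.88, and this is the only control in library set 2. Timp1 in control replicate 5 was at 6.87 log2 CPM, with the next at 7.52. Mmp13 in control replicate 4 was at -0.60 log2 CPM, from 8 counts, with all other controls at -3.09 from 0 counts. Timp3 differed between 2 times: its log2 fold change from 135 to 405 min was -0.76, past the threshold in the edgeR fit, in a comparison that shares the 405-min libraries with the one that chose the members. Time and library set are also largely confounded in that comparison.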

How the results depend on the processing

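At 405 min the directions of Mmp9, Timp1, Timp3 and Fap held under all alternatives run, and those of Mmp2, Mmp14 and Timp2 did not. The directions of Mmp9 and Fap had been used to choose the group, so refits of the same libraries do not test them. For single genes, 640 results kept direction and side of the threshold, 17 lost the call, 17 gained one and 44 turned. The replicate numbers did not pair the libraries (19 same-number pairs, r -0.706 to 0.437, mean -0.11, 4 over 0.1, and 2 of 15 libraries closest to their own number). With the replicate block the members called at 405 against 135 min went from 1 to 0, related genes at 135 min from 2 to 0 and at 405 against 135 min from 7 to 1.

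Counts that moved, the cause not tested, were as follows. At 135 min members called were 1 with the library set as covariate, 1 within set 1, and 2 with control replicate 3 also left out. Related genes at 135 min numbered 0 with only the compared groups, 5 with the GC offset, 11 with the set covariate, 8 within set 1, 7 by DESeq2, 15 with set covariate and without control replicate 3, and 0 to 5 with 1 library left out. At 405 min members were 3 with the set covariate, 3 with only the compared groups, 1 within set 1, 2 within set 2 and 3 to 6 with 1 library left out (6 without control replicate 2), and related genes 3 and 7 within the sets and 11 to 33 with 1 library left out. At 405 against 135 min members were 3 with only the compared groups, 2 with the GC offset, 0 within set 1, 3 by DESeq2, 2 with set covariate and without control replicate 3, and 0 to 2 with 1 library left out. Related genes there were 3 with no filter, 19, 11, 11 with the set covariate, 0, 14, 16, and 1 to 12.

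Log2 fold changes that turned at 45 min were Timp3 at 0.01 with the replicate block, 0.05 with block and GC offset, 0.01 with the GC offset and 0.34 within set 2; Mmp2 at -0.06 with block and GC offset, -0.02 with the GC offset and -0.03 to 0.50 with 1 library left out; Mmp9 at -0.28 with block and GC offset; and Timp1 at 0.06 within set 1, 0.03 with the added setting (control replicate 3 left out, set covariate) and -0.17 to 0.04 with 1 library left out. At 135 min Mmp2 was 0.22 with the set covariate, 0.24 within set 1, 0.18 with the added setting and -0.09 to 0.24 with 1 library left out. Timp1 was 0.06 with the added setting and -0.17 to 0.01 with 1 library left out, Mmp14 -0.16 to 0.34 and Timp2 -0.12 to 0.36. At 405 min Mmp2 was -0.18 with block and GC offset, -0.16 with the GC offset, -0.15 with the set covariate, -0.18 and -0.19 within the sets and -0.18 with the added setting. Mmp14 was -0.17 within set 2 and -0.06 with the added setting, and Timp2 -0.13 with the GC offset, -0.13 with the set covariate, -0.42 within set 2, -0.28 with the added setting and -0.01 to 0.48 with 1 library left out. Mmp10 at 45 min was 0.04 on the log2 RPKM scale and -0.51 to 0.41 with 1 library left out, Mmp13 at 45 min -0.50 to 0.74 and Mmp3 at 135 min -0.20 to 0.82. Counts of 17 or fewer limit Mmp9 in controls, and counts of 6 or fewer limit Fap at 405 min.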
